A study of Homo sapiens with 8 samples.

Results

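Polyamine metabolism was examined through 9 genes in the esophageal squamous carcinoma cell line Kyse510, picked out by gene symbol, with no threshold on measured values. They are ODC1, OAZ1, OAZ2, AZIN1, AMD1, SRM, SAT1, SMOX and PAOX, and all 9 were found in both deposited tables, among 34164 genes listed in at least 1 of them. Putrescine, spermidine and spermine are small positively charged amines that bind nucleic acids and that dividing cells need. Ornithine decarboxylase makes putrescine from ornithine, and spermidine synthase and spermine synthase extend it with aminopropyl groups taken from decarboxylated S-adenosylmethionine. The way back runs through acetylation by spermidine/spermine acetyltransferase and through 2 oxidases that use FAD, SMOX and PAOX, which belong to the same enzyme family as the histone demethylase LSD1.

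The study asked how Kyse510 cells respond when LSD1 (gene KDM1A) and the histone H3 lysine methyltransferase G9a (gene EHMT2) are blocked or silenced. The first set of 4 libraries held cells given vehicle (DMSO-con), the LSD1 inhibitor SP2509, the G9a inhibitor UNC0642, or both inhibitors (SP+UNC), each for 2 days. The series gives 7 µM for each inhibitor alone and no separate dose for the combination. The second set held Kyse510 cells carrying an shRNA against LSD1 or against G9a, selected for 14 days with puromycin, without doxycycline (sh-LSD1-con and sh-G9a-con) or after 2 days of doxycycline, which switches the shRNA on (sh-LSD1+DOX and sh-G9a+Dox). All cells of the second set therefore had been through puromycin selection and carried an shRNA construct. No library with a non-targeting shRNA and doxycycline was analysed here, so silencing and doxycycline itself cannot be told apart.

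Each condition had 1 library, so no value below has a replicate and no p-value is given. Values are FPKM, sequenced fragments scaled to transcript length and library size. Library totals estimated from the steps in the FPKM values ran from 15662035 to 17889466 reads, and 8 members had 374 to 12851 reads per library. Intervals in parentheses are 95% exact (Clopper-Pearson) counting intervals of the ratio of reads, which cover counting error only. A gene was called when FPKM plus 1 differed at least 1.3-fold and at least 1 of the 2 libraries reached 1 FPKM. Doxycycline brought KDM1A in the shLSD1 line from 25.98 down to 6.289 FPKM, and EHMT2 fell in the shG9a line, both as the labels say. EHMT2 went from 7.847 to 4.761 FPKM there, a decrease that 11.7% of tested genes matched. EHMT2 was also lower with both inhibitors and no shRNA, at 5.38 FPKM against 11.12 in vehicle. Of 6 squamous epithelial markers, 5 or 6 reached 1 FPKM in every library. Of 3 endothelial markers, CDH5 stood at 3.28 to 14.0 FPKM in every library, VWF at 0.1297 to 1.417 FPKM, and PECAM1 under 0.57 FPKM. Of the 4 blood cell markers, only CD14 reached 1 FPKM, at 2.665 in sh-LSD1+DOX, and summed fibroblast markers stayed between 3.196 and 6.905 FPKM. The part of other cell types in the results was not tested.

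SP2509 moved 5 of the 8 members that passed the filter. SAT1 and AZIN1 rose, and SRM, AMD1 and SMOX fell. Over all 13342 genes tested, 60.9% were called, 21% higher and 39.9% lower, so the share of members called was near the background. With TMM scaling the split over all genes became 27.8% higher and 32.1% lower. The median log2 change of the 8 members that passed was -0.09, against -0.21 over all genes tested. The decrease of SMOX was at the edge of the call, at -0.40 on the log2 scale against a limit of 0.38, and was no longer called after median centring (-0.31) or TMM scaling (-0.23). In bulk RNA, fewer cells that express a gene and less of its RNA per cell cannot be told apart.

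UNC0642 left nearly all of the 8 members that passed the filter within the 1.3-fold limit. AZIN1 alone among them was called, lower, while 35.1% of 13244 genes were called, 18.2% higher and 16.9% lower. SAT1 lay just inside the limit at a log2 change of 0.35. The median of the 8 members that passed was 0.16, against -0.01 over all genes tested.

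With both inhibitors, ODC1, OAZ1, OAZ2 and AMD1 rose and AZIN1 and SRM fell. These are 6 of 8 members, in a comparison where 63.2% of 13907 genes were called, 31.4% higher and 31.7% lower. SRM barely passed the limit, at -0.39, and was not called with TMM scaling (-0.35). The 8 members that passed had a median of 0.38, against -0.02 over all genes tested.

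Doxycycline in the shLSD1 line raised ODC1, AZIN1, AMD1 and SRM and lowered no member. Over all 12970 genes tested, 37.1% were called, 24.8% higher and 12.3% lower, a split that median centring changed to 17% and 16.6% and TMM scaling to 16.6% and 17%. The median shift, over genes that reached 5 FPKM in each of the 2 libraries, was 0.11 on the log2 scale. Relative to that shift only AMD1 and SRM remained called, whereas ODC1 came to 0.37 and AZIN1 to 0.29. OAZ1 lay just inside the limit at 0.36 before any shift was taken off. The median of the 8 members that passed was 0.38, against 0.13 over all genes tested.

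Doxycycline in the shG9a line moved all 8 members that passed the filter. ODC1, OAZ1, OAZ2, AMD1 and SRM rose, and AZIN1, SAT1 and SMOX fell, where 50.5% of 13080 genes were called, 32.9% higher and 17.6% lower. Median centring changed the split over all genes to 22.5% in each direction, and TMM scaling to 21.5% higher and 23% lower. The median shift was 0.14 on the log2 scale, and after it was taken off OAZ1 (0.26) and OAZ2 (0.31) were no longer called. The 8 members' median of 0.43 compares with 0.18 over all genes tested.

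The lines without doxycycline were close to each other. No member differed 1.3-fold between sh-G9a-con and sh-LSD1-con, where 7.55% of 12449 genes did so, 3.04% higher and 4.51% lower in sh-G9a-con. The largest difference among members was 0.33 on the log2 scale, in SRM. This is a comparison of 2 lines and not of replicates, and it was added after the data were seen.

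**Figure D1:**
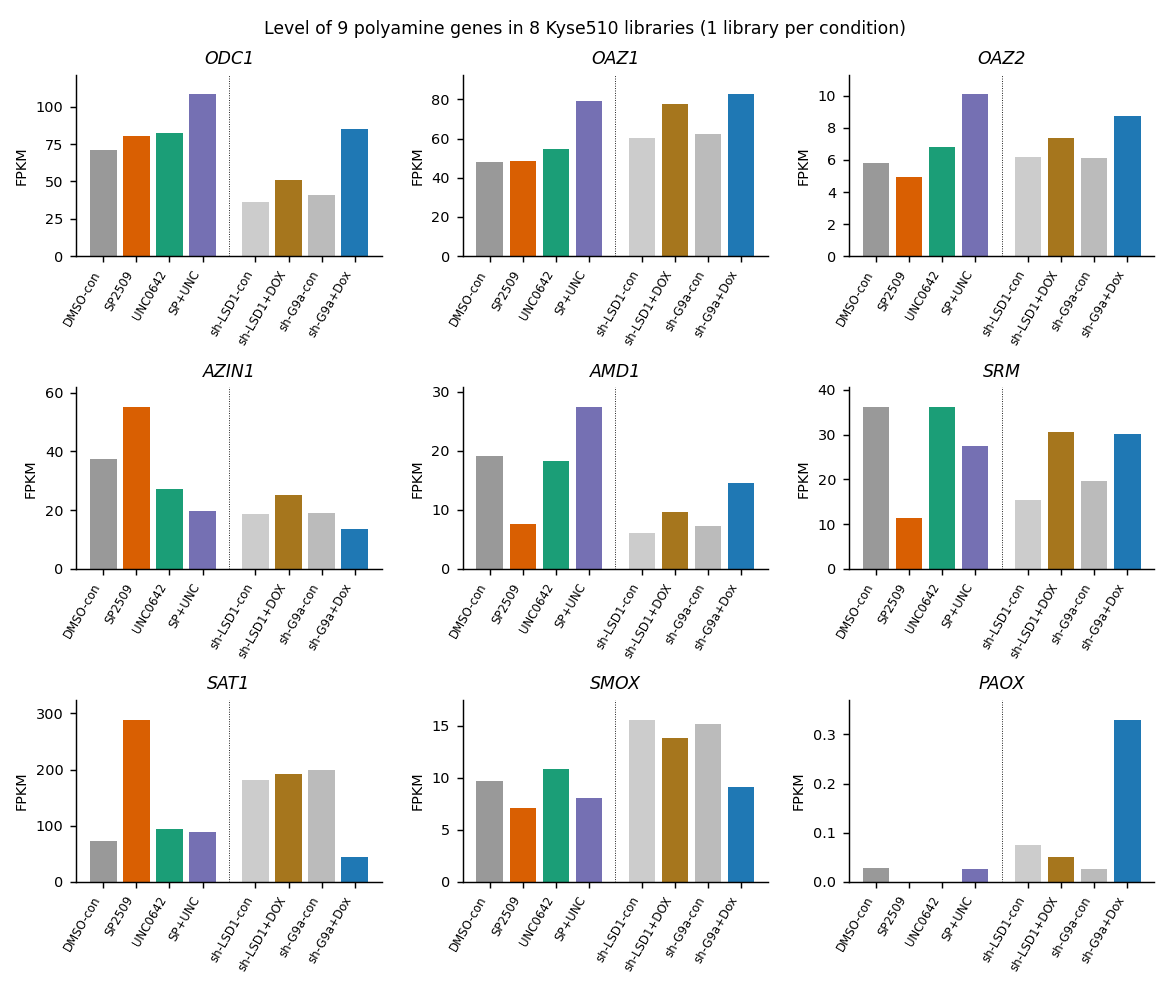
FPKM of the 9 genes in each library (bars, from 0, with a scale of its own for each gene), inhibitor libraries left of the dotted line and shRNA libraries right of it, 1 library per bar. SAT1 stands at 288.9 FPKM with SP2509 and at 44.54 with doxycycline in the shG9a line, and PAOX stays under 0.33 FPKM throughout. The 2 sets were normalized in separate tables.

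ODC1 (ENSG00000115758, GRCh38 chromosome 2, 10439968 to 10448504, minus strand) encodes ornithine decarboxylase, which commits ornithine to the pathway. Its level was 71.06 FPKM in vehicle, 80.75 under SP2509, 82.55 under UNC0642 and 108.6 under both inhibitors. In the second set it was 36.06 in sh-LSD1-con, 50.77 in sh-LSD1+DOX, 40.66 in sh-G9a-con and 85.37 in sh-G9a+Dox. Every treated library thus lay above its own control. The ratio was 1.14 with SP2509 (1.09 to 1.19) and 1.16 with UNC0642 (1.11 to 1.22), both short of a call. It was 1.53 with both inhibitors (1.46 to 1.6), 1.41 with LSD1 silenced (1.33 to 1.49) and 2.1 with G9a silenced (1.99 to 2.21). In the order of levels, SP2509 and UNC0642 differed by less than counting error. SNORA80B, a small nucleolar RNA inside ODC1, was listed at up to 6.195 FPKM.

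The antizymes bind ornithine decarboxylase and carry it to the proteasome. OAZ1 (ENSG00000104904, chromosome 19, 2269509 to 2273490, plus strand) was at 48.13 FPKM in vehicle, 48.45 under SP2509, 54.69 under UNC0642 and 79.38 under both inhibitors. It was at 60.26 in sh-LSD1-con, 77.86 in sh-LSD1+DOX, 62.22 in sh-G9a-con and 82.77 in sh-G9a+Dox. The level with both inhibitors was the highest of its set, and vehicle and SP2509 could not be told apart by counting error. OAZ1 was 1.65-fold higher with both inhibitors (1.57 to 1.73) and 1.33-fold higher with G9a silenced (1.27 to 1.39), the second of these lost under either rescaling.

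OAZ2 (ENSG00000180304, chromosome 15, 64687573 to 64703281, minus strand) was the lower antizyme in every library. It stood at 5.826 FPKM in vehicle, 4.95 under SP2509, 6.799 under UNC0642 and 10.12 under both inhibitors, and at 6.175, 7.364, 6.132 and 8.777 in sh-LSD1-con, sh-LSD1+DOX, sh-G9a-con and sh-G9a+Dox. It rose 1.74-fold with both inhibitors (1.58 to 1.91), close to OAZ1. A gene antisense to it, AC100830.2, reached 1.17 FPKM, and whether strand was used in counting is not given in the sources used here. Antizyme amount also depends on a ribosomal frameshift that RNA levels do not show.

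AZIN1 (ENSG00000155096, minus strand) encodes the antizyme inhibitor, an inactive relative of ornithine decarboxylase that binds antizymes and so frees the enzyme. It was at 37.38 FPKM in vehicle, 55.19 under SP2509, 27.28 under UNC0642 and 19.72 under both inhibitors. In the second set it was at 18.87 in sh-LSD1-con and 25.23 in sh-LSD1+DOX, and at 19.11 in sh-G9a-con and 13.56 in sh-G9a+Dox. AZIN1 was the member called in all 5 comparisons, in each of which between 35.1% and 63.2% of all tested genes were called. The share of genes called in all 5 was not counted. It was higher with SP2509 (1.48-fold, 1.42 to 1.54) and with LSD1 silenced (1.34-fold, 1.26 to 1.41), although the second was not called after rescaling. It was lower with UNC0642 (1.37-fold, 1.31 to 1.44), with both inhibitors (1.9-fold, 1.8 to 2) and with G9a silenced (1.41-fold, 1.32 to 1.51). With both inhibitors AZIN1 fell while ODC1, OAZ1 and OAZ2 rose, and the same directions were seen with G9a silenced.

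**Figure D2:**
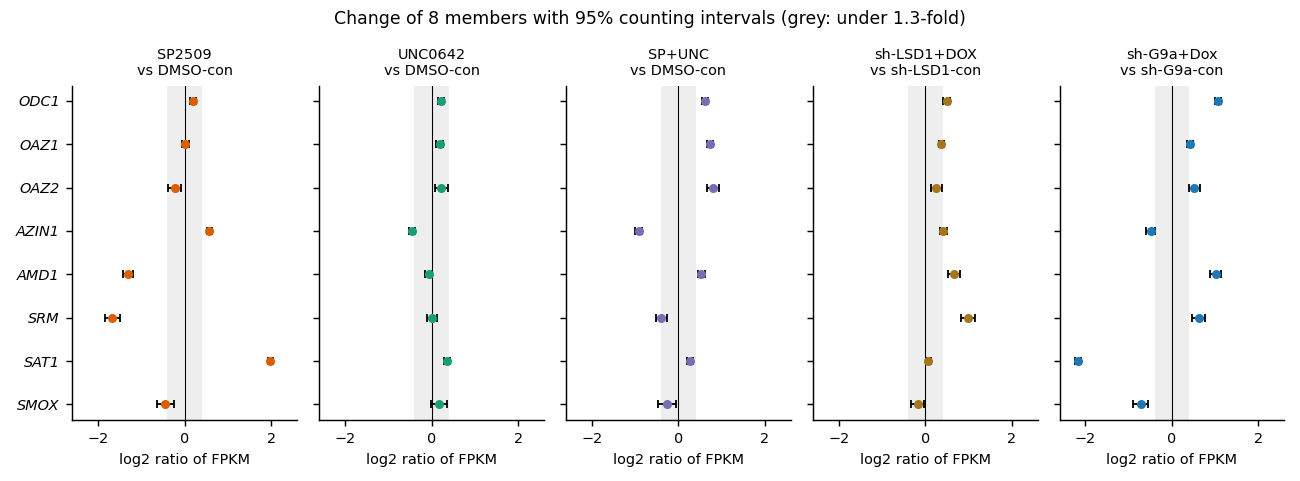
log2 ratio of FPKM (points, x axis) for 8 members (rows) in each of 5 comparisons, with 95% counting intervals as bars and the band under 1.3-fold in grey. AZIN1 lies right of the band for SP2509 and sh-LSD1+DOX and left of it for the other 3 comparisons. SAT1 has the widest range, from -2.14 to 1.97 in log2 change of FPKM plus 1.

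Spermidine and spermine need an aminopropyl donor, which AMD1 makes by decarboxylating S-adenosylmethionine, and SRM, spermidine synthase, adds it to putrescine. AMD1 (ENSG00000123505, chromosome 6, 110874770 to 110895713, plus strand) was at 19.12 FPKM in vehicle, 7.665 under SP2509, 18.22 under UNC0642 and 27.45 under both inhibitors. It was at 6.068 in sh-LSD1-con, 9.632 in sh-LSD1+DOX, 7.244 in sh-G9a-con and 14.58 in sh-G9a+Dox. Among the inhibitor libraries AMD1 was therefore lowest with SP2509 and highest with both inhibitors, and in the second set each doxycycline library lay above its control. AMD1 fell 2.49-fold with SP2509 (2.31 to 2.69). It rose 1.44-fold with both inhibitors (1.36 to 1.52), 1.59-fold with LSD1 silenced (1.45 to 1.74) and 2.01-fold with G9a silenced (1.85 to 2.19).

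SRM (ENSG00000116649, chromosome 1, 11054584 to 11060024, minus strand) was at 36.1 FPKM in vehicle, 11.3 under SP2509, 36.17 under UNC0642 and 27.37 under both inhibitors. It was at 15.43 in sh-LSD1-con and 30.57 in sh-LSD1+DOX, and at 19.65 in sh-G9a-con and 30.12 in sh-G9a+Dox. The library with SP2509 was the lowest of all 4 inhibitor libraries, and the doxycycline libraries of the 2 lines differed by less than counting error. SRM fell 3.19-fold with SP2509 (2.84 to 3.6), a change that only 3.07% of tested genes matched or exceeded downward. It rose 1.98-fold with LSD1 silenced (1.78 to 2.21), where 3.91% of tested genes rose as much, and 1.53-fold with G9a silenced (1.38 to 1.7). The LSD1 inhibitor and the LSD1 shRNA thus gave opposite directions for both AMD1 and SRM. Over all genes tested, 39.9% were called lower with SP2509 and 24.8% higher with LSD1 silenced. How many genes did both was not counted. The compared cells also differed in selection and table, and the difference between the directions was not tested.

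SMS, spermine synthase, is the other gene of aminopropyl transfer. It was at 102.4 FPKM in vehicle, 184.3 under SP2509, 141.4 under UNC0642 and 142.6 under both inhibitors, and at 120.1, 89.35, 106.9 and 95.94 in the second set in the order above. SMS moved opposite to SRM with SP2509, rising 0.84 on the log2 scale where SRM fell by 1.59. With LSD1 silenced, SMS fell by 0.42 where SRM rose 0.94. With both inhibitors SMS rose 0.47 where SRM changed by -0.39, a decrease not called with TMM scaling. With G9a silenced SMS changed by -0.15, short of a call, where SRM rose 0.59. With UNC0642 SMS rose 0.46 and SRM stayed at 0.00.

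Because AMD1 and SRM moved together in 3 of the 5 comparisons, and SAT1 moved the most, the bases before their starts are shown from the RefSeq promoter windows (GRCh38.p14, strand of the gene, up to the start of the gene as the deposited tables place it). Capitals mark the E-box CACGTG, the sequence to which MYC and its partner MAX bind. The windows are chr1:11060025-11060268 for SRM (minus strand), chr6:110874535-110874769 for AMD1 (plus strand) and chrX:23782923-23783172 for SAT1 (plus strand).
SRM: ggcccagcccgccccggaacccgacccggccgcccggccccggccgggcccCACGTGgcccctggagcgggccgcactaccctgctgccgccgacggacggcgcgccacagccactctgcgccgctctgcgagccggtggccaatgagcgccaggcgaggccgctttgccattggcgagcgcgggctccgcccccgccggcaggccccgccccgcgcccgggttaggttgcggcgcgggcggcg
AMD1: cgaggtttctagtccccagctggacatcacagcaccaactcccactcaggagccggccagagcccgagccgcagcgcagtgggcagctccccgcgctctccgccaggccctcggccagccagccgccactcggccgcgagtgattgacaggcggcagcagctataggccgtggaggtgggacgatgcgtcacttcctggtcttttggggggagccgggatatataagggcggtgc
SAT1: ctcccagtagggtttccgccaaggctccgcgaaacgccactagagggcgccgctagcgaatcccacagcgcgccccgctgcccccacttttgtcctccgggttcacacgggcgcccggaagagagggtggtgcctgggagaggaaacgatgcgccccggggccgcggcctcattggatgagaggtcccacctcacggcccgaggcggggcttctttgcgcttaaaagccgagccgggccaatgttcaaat

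The SRM stretch was the richest in G and C, at 82%, against 67.2% in AMD1 and 66.4% in SAT1. Windows of 250 bases before to 50 after a start were given for 6 of the 9 members, 9 windows in all. ODC1 and AMD1 each had more than 1 window. AMD1 windows starting at 110874534 and 110874535 overlap almost wholly, so the 9 are not separate promoters. Each was searched on both strands for the E-box, for the core of the cyclic AMP response element (TGACGT) and for the TATA box (TATAAA). Whether members differ from all windows was not tested. The E-box stood in 2 of the 9 windows, those of SRM (at -199) and of the downstream ODC1 start (at -29 and 5), and in 7.26% of all 35116 RefSeq windows. The response element core stood in 1, that of the upstream ODC1 start (at -178), and in 7.98% of all windows. The string TATAAA stood in 1, that of OAZ1 (at 6, after the RefSeq start), and in 11.5% of all. The windows of AMD1, OAZ2 and SAT1 held none of these letter strings. Only exact strings were counted, so tatataag near the end of the printed AMD1 stretch was not.

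SAT1 (ENSG00000130066, chromosome X, 23783173 to 23786226, plus strand) encodes spermidine/spermine acetyltransferase, which acetylates polyamines so that they can be oxidised or exported. It was at 73.25 FPKM in vehicle, 288.9 under SP2509, 93.92 under UNC0642 and 88.15 under both inhibitors. In the second set it was at 182 in sh-LSD1-con, 191.9 in sh-LSD1+DOX, 200.1 in sh-G9a-con and 44.54 in sh-G9a+Dox. SP2509 alone stood apart at the top of its set, and sh-G9a+Dox stood apart at the bottom of the other. SAT1 rose 3.94-fold with SP2509 (3.79 to 4.11), an increase that 1.72% of tested genes matched, and fell 4.49-fold with G9a silenced (4.27 to 4.72), a decrease that 1.04% of tested genes matched. UNC0642 (1.28-fold, 1.22 to 1.34), both inhibitors (1.2-fold, 1.15 to 1.26) and LSD1 silencing (1.05-fold, 1.02 to 1.09) gave ratios short of a call. Adding UNC0642 to SP2509 was accompanied by a SAT1 level 3.28-fold lower than with SP2509 alone (3.16 to 3.4).

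SAT1 had the widest range of log2 change of the 9 genes, 4.11. Among 10051 protein-coding genes that passed the filter in all 5 comparisons, the 3 with the most similar set of 5 log2 changes were BIRC3, EFNB1 and TGFBI. Their Euclidean distances were 0.52, 0.81 and 0.93. BIRC3, an inhibitor of apoptosis, changed by 1.76 with SP2509 and by -2.03 with G9a silenced. EFNB1, an ephrin ligand, changed by 1.41 and -1.56, and TGFBI, an extracellular matrix protein, by 1.66 and -1.58. The likeness was weaker elsewhere. With LSD1 silenced BIRC3 changed by -0.25, EFNB1 by -0.03 and TGFBI by -0.50, against 0.08 for SAT1. With both inhibitors they changed by -0.02, 0.27 and -0.08, against 0.26 for SAT1. The 5 points share the vehicle library in 3 of them.

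SMOX (ENSG00000088826, chromosome 20, 4120980 to 4187747, plus strand) encodes spermine oxidase, which turns spermine back into spermidine and releases hydrogen peroxide. It was at 9.731 FPKM in vehicle, 7.13 under SP2509, 10.87 under UNC0642 and 8.104 under both inhibitors, and at 15.6, 13.84, 15.19 and 9.173 in sh-LSD1-con, sh-LSD1+DOX, sh-G9a-con and sh-G9a+Dox. Only the last library stood apart within its set, and the other 3 differed from their neighbours in order by less than counting error. SMOX was 1.66-fold lower with G9a silenced (1.47 to 1.86) and 1.36-fold lower with SP2509 (1.19 to 1.57). SMOX and SAT1 fell together with G9a silenced, but with SP2509 SAT1 rose.

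PAOX (ENSG00000148832, chromosome 10, 133379234 to 133391694, plus strand) encodes the peroxisomal oxidase that acts on acetylated polyamines. It passed the filter in no comparison. It had 1 read in vehicle, 0 under SP2509, 0 under UNC0642 and 1 under both inhibitors. A count of 0 allows up to 3 reads, or 0.074 FPKM with SP2509 and 0.0736 with UNC0642. In the second set it had 3, 2, 1 and 13 reads in sh-LSD1-con, sh-LSD1+DOX, sh-G9a-con and sh-G9a+Dox. The last is 0.3297 FPKM, 12.4 times that of sh-G9a-con with an interval of 1.86 to 528, and at such counts the size of the difference is not determined.

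For most members, the level with both inhibitors lay outside the range of the levels with 1 inhibitor. Against SP2509 alone, ODC1, OAZ1, OAZ2, AMD1 and SRM were higher and AZIN1 and SAT1 lower, 7 of 8 members, where 66.6% of 13658 genes were called, 41.8% higher and 24.8% lower. AMD1 was 3.58-fold higher (3.33 to 3.85) and SRM 2.42-fold higher (2.14 to 2.74). Against UNC0642 alone, 4 members were higher and 3 lower, where 54.8% of 13637 genes were called, 27.7% higher and 27.1% lower, and the largest difference was 0.57 on the log2 scale. Of these members, ODC1 (0.39), SRM (-0.39) and SMOX (-0.38) were at the edge of the call. For AMD1, ODC1, OAZ1 and OAZ2 the level with both inhibitors was above that of every other library in its set, and for AZIN1 it was below. For SRM and SMOX it lay between the levels of SP2509 and UNC0642, and for SAT1 it lay between vehicle and UNC0642. These comparisons share libraries, and whether the doses in the combination were the same is not stated.

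**Figure D3:**
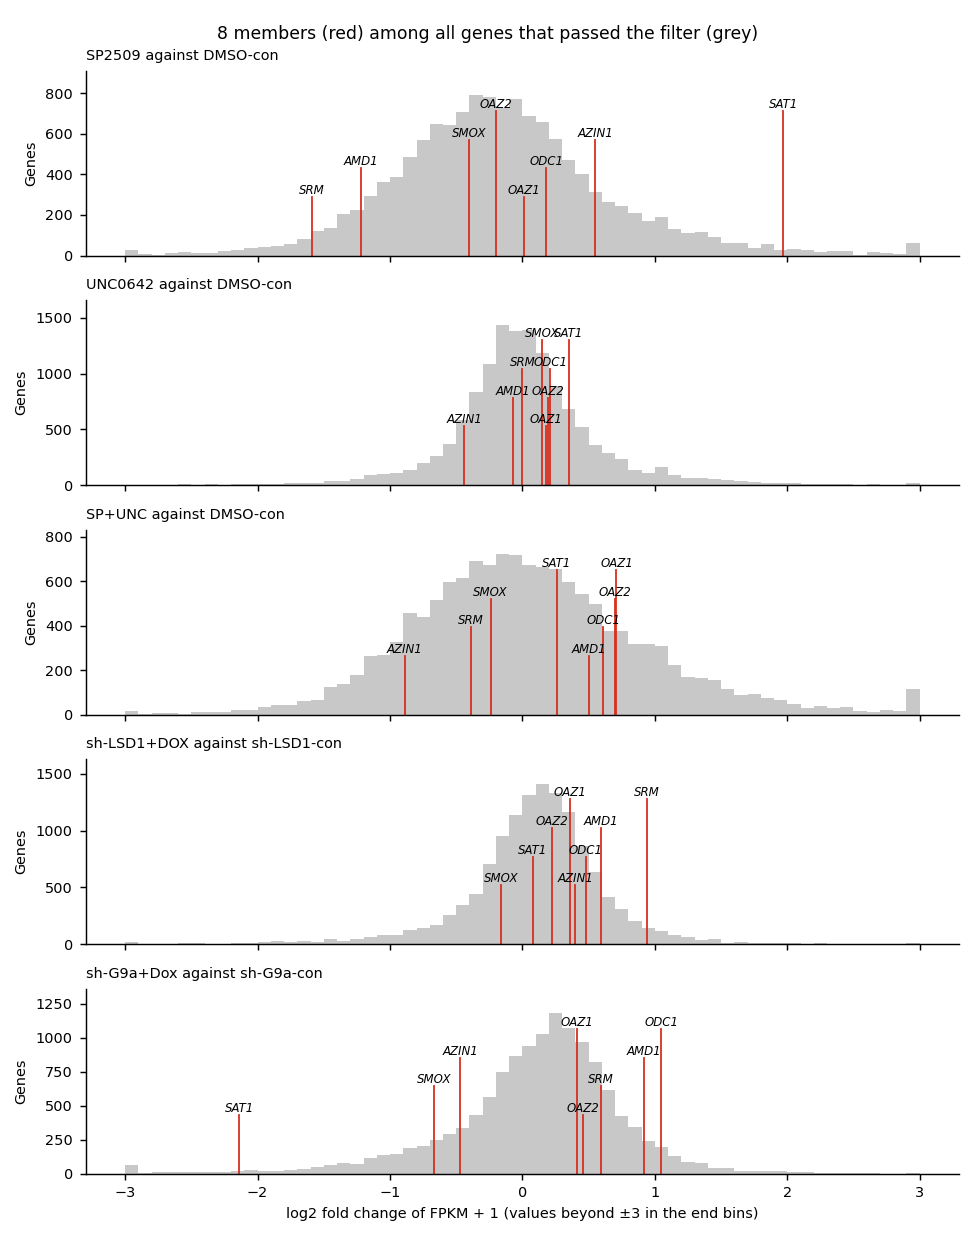
Histograms of the log2 fold change of FPKM plus 1 for all genes that passed the filter in each comparison (grey, number of genes on the y axis), with the 8 members drawn as red lines whose heights carry no value. SAT1 lies near the right end for SP2509 (1.97) and near the left end for sh-G9a+Dox (-2.14), while with UNC0642 all 8 members lie between -0.44 and 0.35.

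The genes around the pathway were taken from lists of known function. Their counts stand against 60.9% of all tested genes called with SP2509, 35.1% with UNC0642, 63.2% with both inhibitors, 37.1% with LSD1 silenced and 50.5% with G9a silenced. List medians of log2 change are given in the same order and stand against -0.21, -0.01, -0.02, 0.13 and 0.18 over all tested genes. Of 10 genes of arginine and ornithine supply, 9 were in the tables and 7 or 8 passed the filter, with medians of -0.79, -0.29, -0.40, 0.21 and -0.40. With SP2509, 1 rose (2 with TMM scaling) and 5 fell, led by SLC7A1, the cationic amino acid importer (43.76 to 16.19 FPKM), and AGMAT (2.171 to 0.4044). With UNC0642, 1 rose and 4 fell (3 with TMM scaling), led by SLC7A1 (to 20.56) and ASS1, argininosuccinate synthase (170.2 to 95.45). With both inhibitors, 2 rose and 4 fell, led by OAT, ornithine aminotransferase (43.08 to 126.7), and ARG2, mitochondrial arginase (4.489 to 9.824). OAT is an enzyme that links ornithine to proline and glutamate. With LSD1 silenced 3 rose, led by AGMAT (0.5182 to 1.485) and OAT (23.74 to 33.78), a count that became 2 with median centring and 1 with TMM scaling. With G9a silenced, 1 rose, a call lost under either rescaling, and 4 fell, led by ASS1 (329.4 to 95.13) and SLC7A1 (18.6 to 5.6).

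The methionine cycle supplies S-adenosylmethionine, and the salvage path recovers methionine from the by-product of aminopropyl transfer. All 10 genes of that list were in the tables and 8 passed the filter in each comparison, with medians of -0.67, 0.06, -0.28, 0.37 and 0.36. With SP2509, 1 rose and 5 fell, or 4 with TMM scaling. MAT2A, the S-adenosylmethionine synthetase, fell by 2.95 on the log2 scale, from 84.81 to 10.13 FPKM, followed by MTR, methionine synthase (5.844 to 2.202). MAT2A was thus lower along with AMD1 and SRM. With UNC0642, 1 rose and 1 fell, MTAP (3.39 to 5.744) and MAT2B (27.27 to 18.77). With both inhibitors 2 rose and 3 fell, a share near that of all genes, led by ADI1 (16.35 to 30.78) and MAT2B (to 15.13). With LSD1 silenced 4 rose, or 3 under either rescaling, and none fell, led by MAT2A (47.83 to 95.23) and ADI1 (9.938 to 15.3). With G9a silenced 4 rose, or 2 under either rescaling, led by MAT2B (22 to 38.22) and MAT2A (44.56 to 74.09).

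Hypusine is made from spermidine on the translation factor eIF5A. Of the 4 genes of that pathway, 2 or 3 passed the filter, with medians of -0.26, 0.07, 0.08, 0.15 and 0.33 in the same order, and only DOHH, the hydroxylase of the last step, was called, rising from 5.313 to 11.64 FPKM with both inhibitors. EIF5A itself lay between 75.18 and 95.04 FPKM in the inhibitor libraries and between 68.03 and 97.91 in the shRNA libraries.

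Of 10 genes of polyamine transport, 5 or 6 passed the filter, with medians of -0.87, 0.37, 0.37, 0.04 and -0.52. With SP2509, 1 rose and 4 fell, led by SLC18B1, a vesicular polyamine transporter (18.71 to 5.47 FPKM), and SLC3A2 (172.6 to 85.97). With UNC0642, 3 rose and 1 fell, led by ATP13A3, a P-type ATPase that takes up polyamines (32.25 to 75.38), and SLC3A2 (to 75.31). With both inhibitors, 3 rose and 1 fell, led by SLC12A8 (2.858 to 6.724) and ATP13A3 (to 61.49). ATP13A3 was higher than vehicle with each inhibitor and with both. With LSD1 silenced 1 rose, SLC18B1 (16.45 to 24.85), and none fell until either rescaling added SLC3A2 (211.2 to 169.2). With G9a silenced 4 fell and none rose, led by SLC3A2 (239.9 to 80.98) and ATP13A3 (15.79 to 8.966).

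Of 14 other amine oxidases, 13 were in the tables. The list includes the lysyl oxidases, which cross-link collagen and elastin. Between 6 and 9 genes passed the filter, with medians of -0.23, 0.07, 0.47, -0.89 and -0.13. With SP2509, 2 rose and 2 fell, led by LOXL2 (19.33 to 90.16 FPKM) and LOX (11.99 to 28.12), and neither decrease was called after rescaling. With UNC0642, 2 rose and 2 fell, led by LOXL2 (to 58.88) and LOXL4 (1.958 to 0.2601). With both inhibitors, 5 rose and 3 fell, led by AOC2 (0.2403 to 6.89) and LOXL2 (to 66.92). AOC2 has a close paralog beside it, AOC3, so reads may be split between them. With LSD1 silenced 4 fell, led by LOX (46.04 to 7.908) and the targeted KDM1A itself. With G9a silenced 3 rose, 1 after rescaling, and 3 fell, led by LOX (41.24 to 3.092) and LOXL2 (53.35 to 6.698). LOX and LOXL2 were thus higher in each inhibitor library and lower in each doxycycline library.

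MYC is a known activator of ODC1 and of other polyamine genes, so its family was listed as well, of which 8 to 10 of 11 genes passed the filter, with medians of 0.13, 0.07, 0.41, -0.00 and 0.20. MYC was at 136.5 FPKM in vehicle, 696.6 under SP2509, 153.4 under UNC0642 and 182.1 under both inhibitors, and at 218.9, 104.6, 205.7 and 67.17 in the second set in the order above. Some levels ran with MYC and some against it. MYC and ODC1 were both above vehicle in each inhibitor library, though ODC1 was called only with both inhibitors. AMD1 was above vehicle only with both inhibitors. MYC was highest where SRM was lowest, with SP2509. Each doxycycline library had less MYC and more ODC1, AMD1 and SRM than its control. The increase of ODC1 in the shLSD1 line was not called after rescaling. Any part of MYC in these levels was not tested. With SP2509, 4 of the family rose and 3 fell, led by MYC and MXI1 (11.49 to 26.05). With UNC0642, 2 rose and 1 fell, led by MXD1, a MAX partner that opposes MYC (6.193 to 16.26), and MXI1 (to 21.28). With both inhibitors 6 rose, or 4 with median centring, and none fell, led by MXD1 (to 49.06) and MYCL (0.2774 to 1.931). With LSD1 silenced 2 rose and 3 fell (4 after rescaling). With G9a silenced 2 rose (1 after rescaling) and 3 fell. The changes were led both times by MXD1 (19.55 to 4.434 and 18.58 to 1.309) and MXI1 (38.76 to 17.27 and 36.22 to 10.8).

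**Figure D4:**
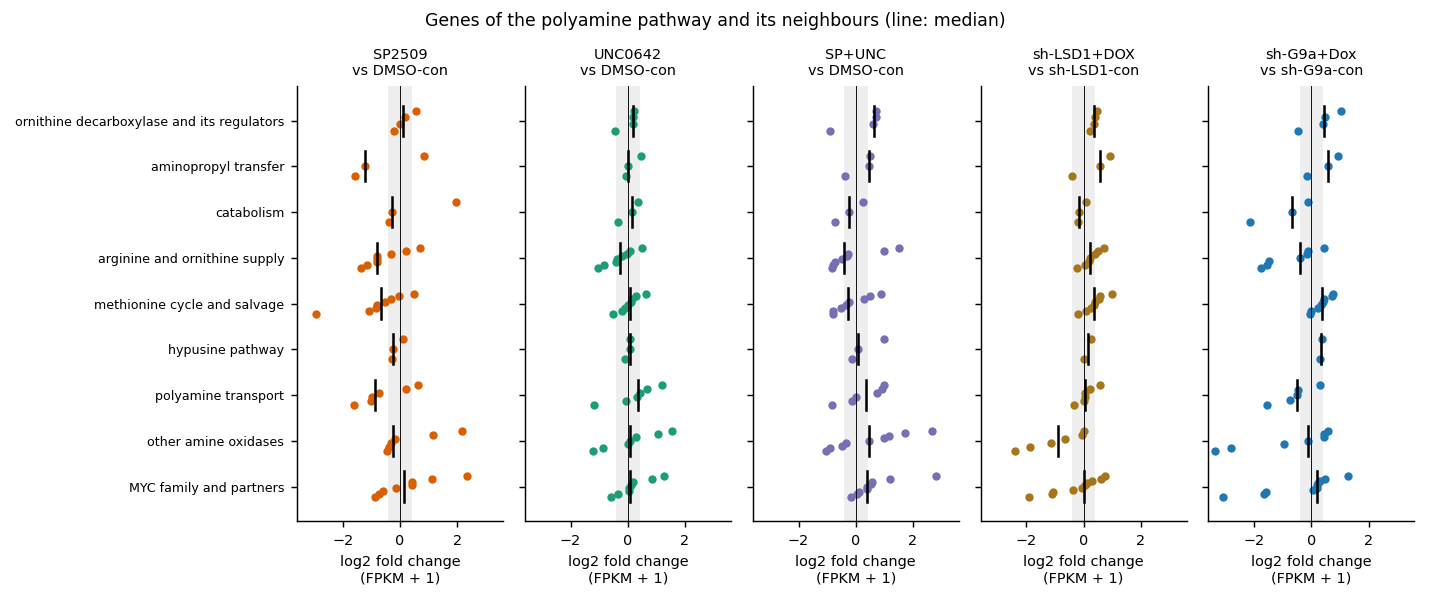
log2 fold change of FPKM plus 1 (x axis) of each gene that passed the filter in 9 lists of the polyamine pathway and its neighbours (rows), for 5 comparisons, with the list median as a black line and the band under 1.3-fold in grey. The aminopropyl transfer list has a median of -1.22 with SP2509 and of 0.59 in each shRNA line.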

How the data were processed

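RNA of Kyse510 cells was sequenced as paired reads of 150 bases in 8 libraries, 1 per condition. The authors deposited FPKM values in 2 tables, normalized separately, which were made with GRCh38 (release 87 per the methods). The aligner, counting tool and use of strand are not given in the sources used here. Of 26360 genes in both tables, 919 have other coordinates, but none of the 9 genes described, so levels were compared within a table. Columns were mapped by sample title.

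The log2 ratio of FPKM + 1 was computed for genes with at least 1 FPKM in 1 of the 2 libraries (Python 3.11.15, NumPy 2.4.6, SciPy 1.17.1, pandas 2.3.3, matplotlib 3.10.9). Reads were estimated from steps in the FPKM values. On simulated data, reads were recovered exactly in every library for 92.7% of 2798 genes of the inhibitor table. For the shRNA table this held for 92.8% of 2814 genes.

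All 9 genes, both targets, the 1 or 2 called genes of largest change in each list and the 3 genes most like the member of widest range were named. MYC, SMS, EIF5A and markers are given beside them. The genes and lists were chosen with earlier results of these data known. Alternatives were other pseudocounts, filters and folds, median centring, TMM factors, a counting interval and a pooled uninduced control.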

Additional observations from a re-analysis of the deposited data

Results flagged for a closer look

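AZIN1 responded to doxycycline in opposite directions in the shRNA lines. Its log2 fold change was 0.40 in the shLSD1 line (18.87 to 25.23 FPKM) and -0.47 in the shG9a line (19.11 to 13.56 FPKM). The increase in the shLSD1 line was not called after median centring (0.29) or TMM scaling (0.26). With 1 library per condition the difference was not tested.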

How the results depend on the processing

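With a fold of at least 2 in place of 1.3, the members called higher went from 2 to 1 with SP2509, from 4 to 0 with both inhibitors, from 4 to 0 with LSD1 silenced and from 5 to 1 with G9a silenced. Those called lower went from 3 to 2 with SP2509 and from 1 to 0 with UNC0642. They went from 2 to 0 with both inhibitors and from 3 to 1 with G9a silenced. Median centring left 2 members higher with LSD1 silenced and 3 with G9a silenced. TMM factors left 2 and 3 there and 1 member lower with both inhibitors. Either rescaling left 2 members lower with SP2509. These rescalings take off the shift common to most genes. The pseudocounts of 0.1 and 0.01 FPKM, the filters (none, or 5 FPKM), the counting interval and the mean of both uninduced libraries as control kept each count of calls within 1.5 times. No called member changed sign under any alternative. No paired analysis was possible because each condition has 1 library and the labels carry no shared replicate numbers, and for the same reason no library could be left out. Depth limits PAOX alone, with at most 13 reads.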

Other observations

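Levels of the members relative to each other within a library, which need no scaling between libraries, spread widely. SAT1 over SRM, a ratio of FPKM of the acetyltransferase to spermidine synthase, was 2.03 in vehicle, 25.6 under SP2509, 2.6 under UNC0642 and 3.22 under both inhibitors. It was 11.8 in sh-LSD1-con, 6.28 in sh-LSD1+DOX, 10.2 in sh-G9a-con and 1.48 in sh-G9a+Dox. OAZ1 over OAZ2, the ratio of the antizymes, stayed between 7.85 and 10.6 in the same 8 libraries. ODC1 over OAZ1 ran from 1.37 to 1.67 in the inhibitor libraries and from 0.598 to 1.03 in the shRNA libraries.

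SRM over SMS, the ratio of spermidine synthase to spermine synthase, was 0.353 with vehicle and 0.0613 with SP2509, and 0.128 in sh-LSD1-con against 0.342 in sh-LSD1+DOX. DHPS, which starts hypusine synthesis, was listed at 11.72 FPKM with vehicle but at under 1 FPKM in all 4 shRNA libraries. It had 552 reads with vehicle and 32 in sh-LSD1-con. This difference crosses tables that were normalized separately and that also differ in annotation, with another biotype for 2857 genes. Whether annotation accounts for it was not tested.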
